A study of Mus musculus with 4 samples.

Results

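The secreted WNT, TGF-beta, BMP and FGF signals, their receptors and their first intracellular relays were examined in mouse thymus across 4 RNA sequencing libraries. Members were the genes whose symbols begin with the names of WNT ligands, frizzled receptors, TGF-beta, BMP, SMAD, FGF and FGF receptor genes, or of Sfrp, Axin, activin receptor, inhibin, latent TGF-beta binding protein (Ltbp) and Dickkopf (Dkk) genes, with the kinase gene Bmp2k left out. The rule found 36 of 10598 gene symbols, with 10 in the WNT group, 18 in the TGF-beta and BMP group and 8 in the FGF group. The symbols also brought in genes of other functions: Fgfr1op and Fgfr1op2 were named for fusion partners of an FGF receptor, Tgfbi encodes a matrix protein, Tgfbrap1 a receptor-associated protein, and Bmp1 a protease that trims procollagen.

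Thymus RNA came from C57BL/6J mice that were wild type or lacked Camk2g (genotype CAMKIIgamma-/-), which encodes the gamma isoform of the kinase CAMKII. Mice of both genotypes had received N-methyl-N-nitrosourea (MNU), an alkylating mutagen that induces T-cell lymphoma, at 75 mg/kg, once, when 4 to 5 weeks old, or vehicle. Treatment time is labelled as 6 months for MNU and for vehicle alike. Each of the 4 groups (wild type with vehicle, MNU-treated wild type, knockout with vehicle and MNU-treated knockout) was 1 library, and the number of mice behind a library is not stated in the labels. No value below has a replicate check, and no test was possible. The series asked how loss of Camk2g alters thymic gene expression in the malignant and the normal state.

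WNT ligands bind frizzled receptors and thereby stop the complex built on the scaffold AXIN from destroying beta-catenin, which then acts with TCF7 and LEF1, factors that thymocytes depend on. TGF-beta and BMP ligands assemble receptor kinases that phosphorylate SMAD proteins, and FGF ligands activate receptor tyrosine kinases. In the thymus, stromal WNT, BMP and FGF signals support epithelial cells, and TGF-beta restrains T cells.

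The values are the authors' normalised counts, which summed to between 32911362 and 34836257 per library. Camk2g stood at 2749 in vehicle-treated wild type and 3173 in MNU-treated wild type, at 489 in the vehicle-treated library labelled knockout and 29.7 in MNU-treated knockout. The vehicle-treated library labelled knockout thus held more Camk2g than MNU-treated knockout. It also held a median of 15.4% of the level that MNU-treated wild type reached, above the other libraries, over 42 genes outside the members that were high in MNU-treated wild type (5th to 95th percentile 13.9% to 18.5%). Member counts in the 2-library comparisons with it, and the member differences that pass the 2-fold rule there, are therefore also given with that share subtracted. T-lineage markers were present throughout, with 20 genes summing to between 334914 and 629161. Markers of thymic epithelium were not: the 19 measured genes summed to 120088 in vehicle-treated wild type, 2968 in MNU-treated wild type, 124989 in the vehicle-treated library labelled knockout and 96716 in MNU-treated knockout. In MNU-treated wild type 7 of the 19 stood under 10, and Foxn1, a transcription factor of thymic epithelium, was listed at 0. Fewer cells of a type and less RNA per cell cannot be told apart in such libraries.

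**Figure D1:**
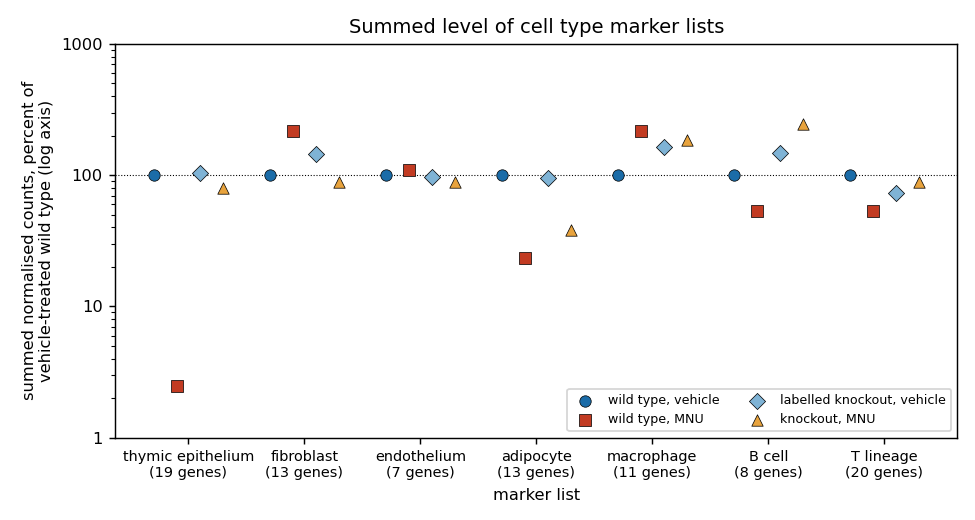
Summed normalised counts of 7 cell type marker lists, as a percent of vehicle-treated wild type (dotted line) on a log axis, with 1 point per library. Thymic epithelial markers stood at 2.47% in MNU-treated wild type and adipocyte markers at 23.5%, whereas fibroblast and macrophage markers stood at 217% and 216%. A sum can hide a split list: of 13 fibroblast genes 7 were at least 2-fold higher there and 2 lower, against 7.14% and 14.2% of all genes.

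Promoter sequences are shown for the WNT ligands that moved most in MNU-treated wild type, Wnt5b and Wnt8b upward and Wnt4 downward, and for Axin2, which beta-catenin induces. Each is the 250 bases before a RefSeq start site in build GRCm38.p6, printed 5′ to 3′ on the gene's strand. The window of Wnt5b is chr6:119449387-119449636 on the minus strand (1 of 3 start sites listed), that of Wnt8b chr19:44493222-44493471 on the plus strand, that of Axin2 chr11:108920099-108920348 on the plus strand and that of Wnt4 chr4:137277385-137277634 on the plus strand. Capitals mark CTTTGA, a core of TCF/LEF sites, or GGCGCC, found in BMP response elements. The Wnt5b window was picked from the 3 because it holds CTTTGA.
Wnt5b: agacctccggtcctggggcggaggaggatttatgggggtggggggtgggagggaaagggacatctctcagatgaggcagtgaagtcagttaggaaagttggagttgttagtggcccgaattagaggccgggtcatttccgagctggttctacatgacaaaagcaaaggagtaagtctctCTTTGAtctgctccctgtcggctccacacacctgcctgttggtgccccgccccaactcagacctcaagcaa
Wnt8b: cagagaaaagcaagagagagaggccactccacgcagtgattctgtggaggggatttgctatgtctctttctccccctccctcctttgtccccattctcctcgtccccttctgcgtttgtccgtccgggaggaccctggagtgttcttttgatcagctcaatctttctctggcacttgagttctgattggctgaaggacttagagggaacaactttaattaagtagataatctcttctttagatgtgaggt
Axin2: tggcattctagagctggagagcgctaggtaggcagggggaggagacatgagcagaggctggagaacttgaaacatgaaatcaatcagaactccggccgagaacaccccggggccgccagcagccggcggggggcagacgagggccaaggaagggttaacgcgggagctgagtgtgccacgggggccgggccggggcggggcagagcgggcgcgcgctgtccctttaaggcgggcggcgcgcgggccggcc
Wnt4: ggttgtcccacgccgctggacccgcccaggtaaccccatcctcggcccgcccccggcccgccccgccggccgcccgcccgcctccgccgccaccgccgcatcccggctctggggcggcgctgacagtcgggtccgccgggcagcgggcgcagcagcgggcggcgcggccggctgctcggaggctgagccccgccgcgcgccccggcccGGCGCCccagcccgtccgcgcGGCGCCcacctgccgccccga

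Of the members, 24 of 36 matched a RefSeq promoter, with 36 windows that ran from 250 bases before to 50 after a start site. Searched on both strands in these windows, CTTTGA was found in 1 of 36, the Wnt5b window above at base 180, against 16.0% of 32851 windows over all genes. GGCGCC was found in 12 of 36 windows, from 10 genes, against 11.9% of all windows. Wnt4 held it at bases 209 and 230. The SMAD element GTCTAGAC was found in 0 of 36 member windows and 0.213% of all. None of the 3 motifs contains another. The member windows were richer in G and C than all windows, with medians of 67.3% and 52.7%, and the part of base composition in these shares was not tested.

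In MNU-treated wild type, several WNT, BMP and FGF genes stood far below their level without MNU, while a smaller set led by Wnt5b stood above it. Counting differences of 2-fold or more on the log2(normalised counts + 10) scale, 5 of 36 members were higher, against 7.14% of all 10587 genes counted. On the same scale 12 of 36 were lower, against 14.2% of all genes. The median member difference was -0.35 and that of all genes -0.01. The other 3 libraries lay closer together: 33 of 36 members stayed within 2-fold across them, against 94.6% of all genes. The exceptions were Dkk3, Fzd4 and Wnt5b. The median fold range across these 3 libraries was wider for the members, at 1.37, than for all genes, at 1.14. Thymic epithelial markers stood at 2.47% of their vehicle level in MNU-treated wild type, and the part of epithelial content in the member values was not tested.

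**Figure D2:**
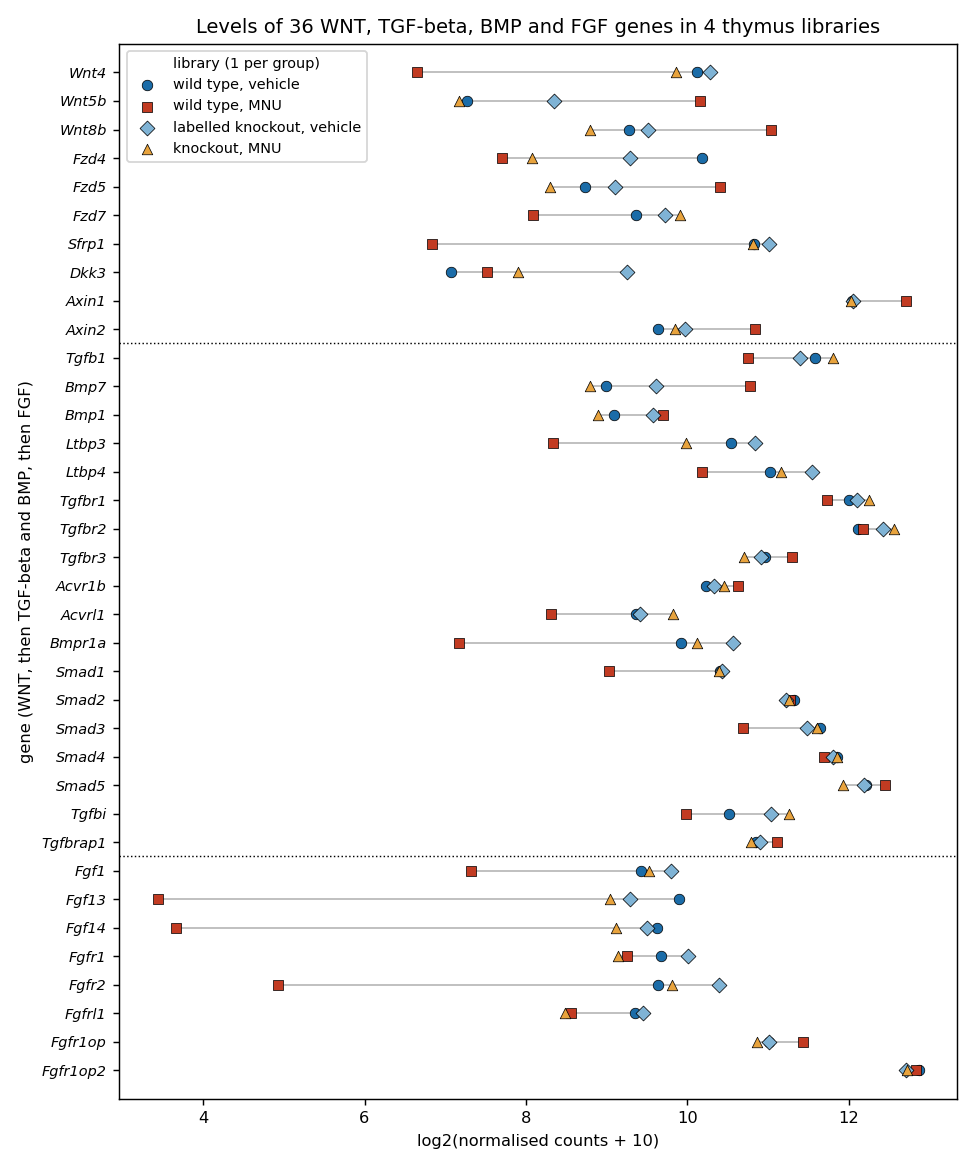
Level of each of the 36 genes in the 4 libraries, as log2(normalised counts + 10), with 1 point per library and a grey line spanning the lowest to the highest. MNU-treated wild type (red squares) was the highest library for 12 of 36 genes and the lowest for 18, against 44.4% and 43.3% of all genes.

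Among WNT ligands, Wnt5b and Wnt8b stood higher and Wnt4 lower in MNU-treated wild type. Wnt5b, a ligand of beta-catenin-independent signalling, stood at 145 in vehicle-treated wild type, 1132 in MNU-treated wild type, 315 in the vehicle-treated library labelled knockout and 134 in MNU-treated knockout. It was thus 7.82-fold higher with MNU in wild type, and the 2 libraries at the bottom differed by 1.08-fold. Wnt8b, known best from the embryonic brain, stood at 608, 2087, 723 and 435 in the same order, 3.43-fold higher with MNU in wild type. Wnt4, a ligand of the thymic stroma that supports epithelial Foxn1 expression, stood at 1101, 90.0, 1237 and 919. MNU-treated wild type was the lowest library for Wnt4, 12.2-fold below vehicle-treated wild type, and the others lay between 919 and 1237.

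The frizzled receptors did not move together in wild type. Fzd5 stood at 414, 1351, 542 and 303 in vehicle-treated wild type, MNU-treated wild type, the vehicle-treated library labelled knockout and MNU-treated knockout, and was 3.27-fold higher with MNU in wild type. Fzd7 stood at 652, 263, 838 and 949, and was 2.48-fold lower. Fzd4, a receptor also used by the ligand norrin in blood vessels, stood at 1149, 199, 617 and 259. It was low in both libraries with MNU and 5.78-fold lower with MNU in wild type.

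Of the secreted WNT inhibitors, Sfrp1, which binds WNT ligands outside the cell, stood at 1801, 104, 2061 and 1789.6 in the same order of libraries. MNU-treated wild type was low, by 17.3-fold, and the other 3 libraries spanned 1.15-fold. Dkk3, a secreted glycoprotein of the Dickkopf family, stood at 124, 173, 599 and 229.8. The vehicle-treated library labelled knockout was the high one, and wild type with and without MNU differed by 1.39-fold.

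Within the destruction complex, Axin2, a negative feedback target of beta-catenin, stood at 786, 1825, 996 and 912. It was 2.32-fold higher with MNU in wild type, and the other 3 libraries lay between 786 and 996. Its constitutive paralog Axin1 stood at 4182, 6698, 4242 and 4169.7, so that MNU-treated wild type was again the highest, by 1.60-fold, under the 2-fold rule.

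**Figure D3:**
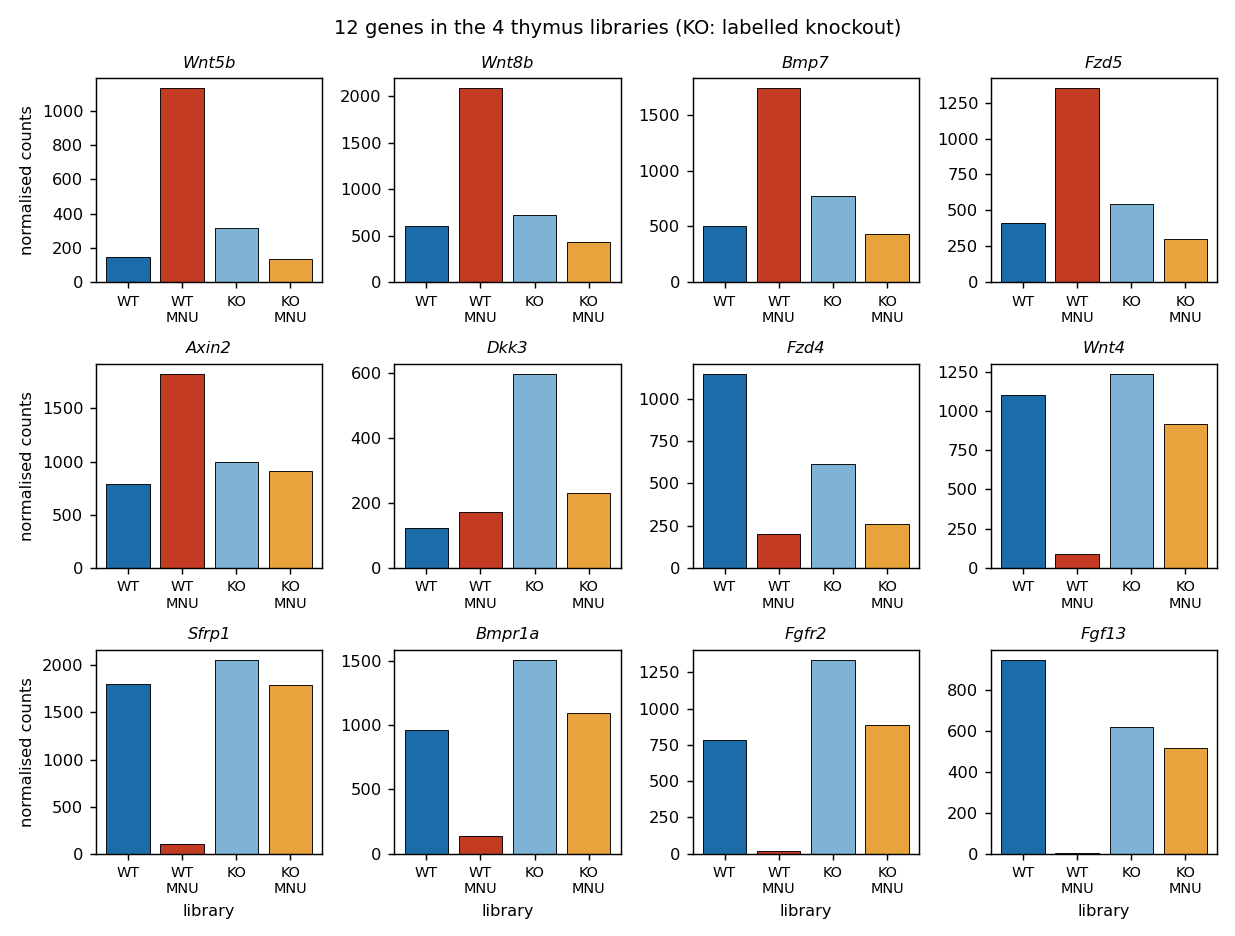
Normalised counts of 12 genes in each of the 4 libraries (1 bar per library, axes from 0; KO, labelled knockout). The first 5 genes were highest in MNU-treated wild type and next highest in the vehicle-treated library labelled knockout, Dkk3 stood at 599 in that library alone, and Fzd4 was low in both libraries with MNU.

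Of 32 other genes of WNT secretion, reception and transduction measured, 3 were at least 2-fold higher and 5 lower in MNU-treated wild type, with a median of -0.20. These shares lay near the 7.14% and 14.2% of all genes. Wls, the carrier that WNT ligands need for secretion, stood at 2732 without and 409.8 with MNU. The planar polarity genes Prickle1 (984 against 3603) and Vangl2 (344 against 1159) were higher, and Tle2, a corepressor of TCF factors, was lower (1039 against 309). Ctnnb1, the gene for beta-catenin, stood at 18051 and 23200.4, Lef1 at 6675 and 4194, and Tcf7 at 96028 and 46392. These last 3 genes lie outside the naming rule and were chosen after their values were seen. Of these Tcf7 passed the 2-fold rule. Tcf7 is also on the T-lineage list, which summed to 53.2% of vehicle-treated wild type in this library, a sum that includes Tcf7 itself. Of the 20 genes on that list 2 were at least 2-fold higher and 7 lower, against the same shares of all genes, with a median of -0.86. The part of T-cell content in the Tcf7 value was not tested.

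Of 9 measured genes that beta-catenin can induce, Axin2 not among them, 1 was higher and 4 lower, against 7.14% and 14.2% of all genes, with a median of -0.67. Tcf7 and Lef1 stand on this list and the previous one, and Tcf7 is 1 of the 4. The higher gene was Cd44, an adhesion receptor (1642 against 3977). The WNT inhibitor gene Apcdd1 (587 against 53.8), the matrix gene Ccdc80 (2277 against 393) and Zcchc12 (340.1 against 2.68) were lower.

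Among TGF-beta and BMP ligands in wild type, Bmp7 stood higher with MNU and Tgfb1 lower. Bmp7, a ligand of epithelia and mesenchyme, stood at 499.8 in vehicle-treated wild type, 1743 in MNU-treated wild type, 773 in the vehicle-treated library labelled knockout and 433 in MNU-treated knockout. It was 3.49-fold higher with MNU in wild type, and the 3 other libraries spanned 1.79-fold. Tgfb1, the main TGF-beta of lymphoid tissue, stood at 3059, 1710.3, 2674 and 3562. MNU-treated wild type was the lowest library for Tgfb1, but by 1.79-fold and so short of the 2-fold rule. Bmp1 stood at 536, 821, 753 and 466.

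The latent TGF-beta binding proteins, which tether TGF-beta to the matrix, both stood lowest in MNU-treated wild type. Ltbp3 stood at 1474, 313, 1821 and 1001 in the same order, 4.71-fold lower with MNU in wild type. Ltbp4 stood at 2078, 1153, 2965 and 2275, a 1.80-fold difference. Markers of fibroblasts, cells known to make such matrix proteins, summed to 29358 without and 63701 with MNU in wild type. That list was split. Of its 13 measured genes 7 were at least 2-fold higher, against 7.14% of all genes. Postn (2564 against 452) and Dpt (1384 against 658) were the 2 lower, against 14.2%. The part of fibroblast content in these values was not tested.

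Among receptors, the BMP receptor Bmpr1a, a type I receptor for BMP2 and BMP4, stood at 959.9, 135, 1511 and 1098. MNU-treated wild type was far below the rest, by 7.13-fold against vehicle-treated wild type. Acvrl1, the endothelial type I receptor ALK1, stood at 651, 309, 670.2 and 899, and was 2.11-fold lower. With a pseudocount of 40 in place of 10 its log2 difference was -0.99, just under the 2-fold rule. Endothelial markers summed to 9581 and 10533 in the same pair of libraries, with Pecam1 (4919 against 6192) the largest value in the sum. Of the 7 measured, 0 were at least 2-fold higher and 1 lower, Cldn5 (441 against 129), with a median of -0.18. All genes gave 7.14% higher and 14.2% lower. The part of endothelial content in the Acvrl1 values was not tested. The TGF-beta receptors proper stayed within 1.5-fold between the wild-type libraries. Tgfbr1, the signalling kinase, stood at 4079, 3383, 4385 and 4864, and Tgfbr2, which binds the ligand, at 4419.7, 4616, 5504 and 6014. Tgfbr3, the coreceptor betaglycan, stood at 1985, 2512, 1918 and 1649.7, and Acvr1b, the activin type I receptor ALK4, at 1193, 1571, 1278 and 1387.

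Of the 5 SMAD genes, Smad1 and Smad3 were low in MNU-treated wild type. Smad1, which relays BMP signals, stood at 1343, 513, 1372 and 1330.0, 2.62-fold lower, with the other 3 libraries within 1.03-fold of each other. Smad3, which relays TGF-beta signals, stood at 3179, 1639.6, 2854 and 3109, and its log2 difference of -0.95 lay just under the 2-fold rule. Their partners were nearly level: Smad2 ranged from 2385 to 2541 over the 4 libraries and the shared partner Smad4 from 3291 to 3704. Smad5, the other BMP relay, stood at 4717, 5557, 4668 and 3891. Tgfbi stood at 1455, 1006, 2087 and 2444 and Tgfbrap1 at 1843, 2205, 1894 and 1756, with no 2-fold difference between the wild-type libraries.

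Of 24 measured regulators of TGF-beta and BMP signalling outside the members, 2 were higher and 6 lower in MNU-treated wild type, against 7.14% and 14.2% of all genes (median -0.15). The lower ones included the SMAD corepressor genes Tgif1 (1643 against 292) and Skil (2213 against 526), the BMP coreceptor gene Rgma (554 against 129) and Crim1 (1001 against 292), whose product binds BMP ligands. Of 17 measured genes that TGF-beta or BMP can induce, 3 were higher and 7 lower, against the same shares of all genes (median -0.42). Id3, an inhibitor of E proteins in thymocytes, stood at 2951 without and 371 with MNU, Id4 at 211 and 4.54, Hey1 at 699 and 67.7, and Itgae, the CD103 integrin chain, at 832 and 116. The higher genes were the matrix genes Col1a1 (2221 against 10968), Col1a2 (2519 against 10305) and Fn1 (2509 against 9043), of which Col1a1 and Col1a2 are also on the fibroblast marker list. Skil, Tgif1 and Pmepa1 stand on both lists.

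Of the 8 FGF-named members 4 were lower in MNU-treated wild type, against 14.2% of all genes, and 0 higher, against 7.14%, with a median of -1.45. The 4 were Fgfr2, Fgf1 and the intracellular Fgf13 and Fgf14, and the 8 include Fgfr1op and Fgfr1op2, named for other proteins. Fgfr2, the receptor through which FGF7 and FGF10 act on thymic epithelium, stood at 786 in vehicle-treated wild type, 20.3 in MNU-treated wild type, 1338 in the vehicle-treated library labelled knockout and 887 in MNU-treated knockout. Fgf1, a ligand of all FGF receptors, stood at 680.3, 149.5, 876 and 724, 4.55-fold lower in MNU-treated wild type. The other FGF receptor measured, Fgfr1, stood at 808, 600.4, 1018 and 555, within 2-fold throughout, and the decoy-like receptor Fgfrl1 at 645, 367, 687 and 347.

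The lowest values of any member were those of Fgf13 and Fgf14, which encode FGF-homologous factors that stay inside the cell and bind sodium channels instead of FGF receptors. Fgf13 stood at 946 in vehicle-treated wild type, 0.824 in MNU-treated wild type, 618 in the vehicle-treated library labelled knockout and 516 in MNU-treated knockout. Fgf14 stood at 780.4, 2.68, 717 and 543 in the same order. On the log2(normalised counts + 10) scale the differences were -6.46 and -5.96. These sizes rested on the pseudocount and were -4.59 and -4.27 with a pseudocount of 40. The near loss of both genes was thus seen in 1 library. In that library 7 of 19 thymic epithelial markers stood under 10, among them Prss16 (25293 against 8.26) and Krt5 (10373 against 7.33). Others on the list were far from 0, such as Ly75 (4774 against 1319) and Epcam (1389 against 784). The part of epithelial content in the Fgf13 and Fgf14 values was not tested. Fgfr1op (2048, 2753, 2051 and 1858) and Fgfr1op2 (7497, 7280.1, 6669.8 and 6720.3) were near level.

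Of 21 measured FGF coreceptor, transduction and feedback genes, 2 were higher and 5 lower in MNU-treated wild type, against 7.14% and 14.2% of all genes (median -0.19). The feedback genes diverged. Dusp6, a phosphatase of ERK, stood at 1906 and 609.7, Spred1, an inhibitor of RAS signalling, at 1095 and 352, and Spry1, another receptor kinase inhibitor, at 486 and 1379.6. Fgfbp3, a carrier of secreted FGF, stood at 547 and 138.

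In knockout mice the members differed far less with MNU. Between the vehicle-treated library labelled knockout and MNU-treated knockout, 0 of 36 members were at least 2-fold higher, against 0.331% of all genes, and 3 of 36 were lower, against 2.95%. The lower ones were Dkk3 (599 against 229.8), Fzd4 (617 against 259) and Wnt5b (315 against 134). Fgfrl1 (log2 difference -0.96), Fgfr1 (-0.86) and Ltbp3 (-0.86) came next. With the wild-type MNU share subtracted 4 of 36 were lower, against 1.87% of all genes. They were Dkk3, Fzd4, Fgfrl1 and Ltbp3, whereas the Wnt5b difference was -0.30. With vehicle-treated wild type in place of the vehicle-treated library labelled knockout, 0 members were higher and 1 of 36 lower, against 1.57% and 1.11% of all genes. That gene was Fzd4, at a log2 difference of -2.11, and Dkk3 turned to 0.84.

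Fzd4 was therefore lower in MNU-treated knockout in each of these contrasts, of which that with vehicle-treated wild type also differs in genotype. Without MNU, Fzd4 was already 1.86-fold lower in the library labelled knockout than in wild type (617 against 1149, log2 difference -0.89). MNU-treated knockout stood 2.38-fold below the vehicle-treated library labelled knockout and 4.43-fold below vehicle-treated wild type. Summed adipocyte markers were also lower with MNU. Their 13 measured genes summed to 83311 in vehicle-treated and 19616 in MNU-treated wild type. They summed to 79706 in the vehicle-treated library labelled knockout and 31773 in MNU-treated knockout. With MNU in wild type 0 were at least 2-fold higher and 11 lower, against 7.14% and 14.2% of all genes. Between the knockout-labelled libraries 0 were higher and 10 lower, against 0.331% and 2.95%. Without MNU the list was split: Cfd and Retn were higher in the library labelled knockout and Lep and Ucp1 lower, against 2.59% and 0.359%. Lep, the leptin gene, stood at 2877, 0, 1176 and 402.5 in the order above. The part of adipocyte content in the Fzd4 values was not tested.

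**Figure D4:**
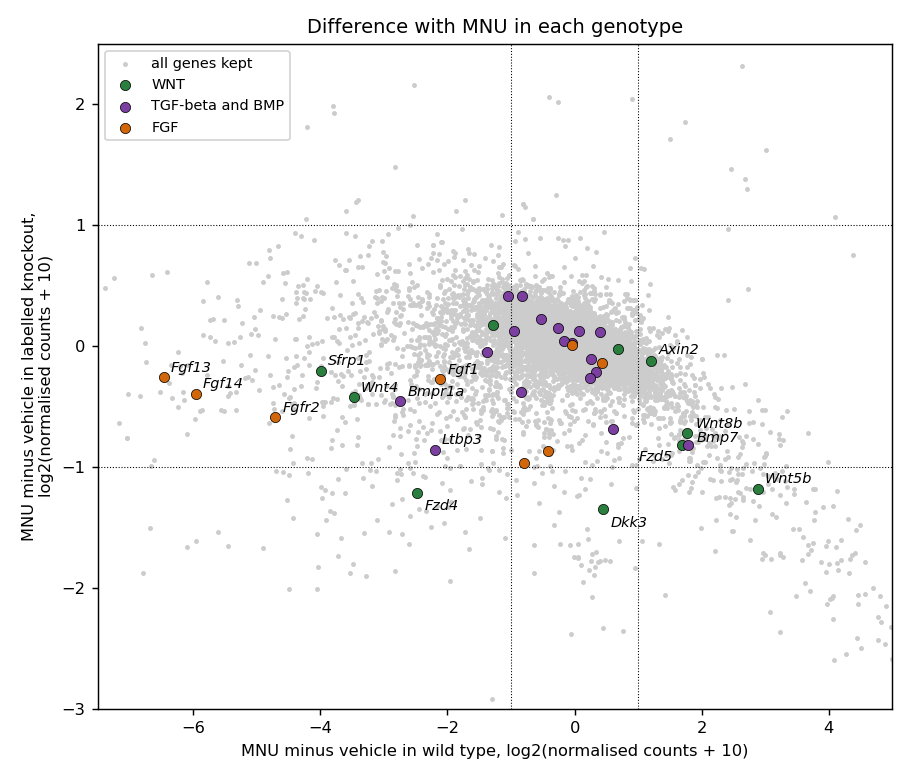
Difference with MNU in wild type (x axis) and between the knockout-labelled libraries (y axis), each as MNU minus vehicle in log2(normalised counts + 10), for the members (coloured by group) and all genes kept (grey; 67 lie outside the axes). Dotted lines mark 2-fold. Members spread from -6.46 to 2.88 along the x axis and from -1.34 to 0.42 along the y axis.

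Among the other genes of these pathways, 5 of the 8 that were lower in MNU-treated knockout were on the TGF-beta and BMP target list. Of its 17 measured genes, 0 were higher and 5 lower, against 0.331% and 2.95% of all genes (median -0.28, against 0.01 for all genes). Ctgf, a matricellular growth factor gene, stood at 445 without and 98.1 with MNU, Id4 at 476 and 203 and Fn1 at 2461 and 1123. Among the regulators Thbs1, whose product thrombospondin releases active TGF-beta, stood at 2788 in vehicle-treated wild type, 2677 in MNU-treated wild type, 1138 in the vehicle-treated library labelled knockout and 210.5 in MNU-treated knockout. It was the only one of the 24 that was at least 2-fold lower in that comparison, and 0 were higher. With the wild-type MNU share subtracted, 3 of 17 were still lower, Ctgf and Id4 among them, and Fn1 stood at 1265 in the vehicle-treated library, while Thbs1 stayed lower. Of the WNT targets 2 of 9 were lower with and without the subtraction, Ccdc80 (1911 against 828) and Apcdd1 (484 against 233). None of the 32 WNT transduction genes or 21 FGF pathway genes differed by 2-fold. Fibroblast markers summed to 42416 without and 26189 with MNU in this pair as deposited. Of the 13 measured, 0 were higher and 4 lower, against 0.331% and 2.95% of all genes. With the share subtracted 0 were lower, against 1.87%. The part of fibroblast content in the target values was not tested.

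Without MNU, the library labelled knockout held more Dkk3 and Wnt5b than wild type. At the 2-fold rule 2 of 36 members were higher, against 2.59% of all genes, and 0 lower, against 0.359%. Dkk3 was 4.83-fold higher (124 against 599) and Wnt5b 2.18-fold higher (145 against 315). With the share subtracted Wnt5b stood at 167, a log2 difference of 0.20, and Dkk3 alone was at least 2-fold higher, against 1.72% of all genes. With MNU-treated knockout in its place neither gene was at least 2-fold higher, and Dkk3 had a log2 difference of 0.84. In MNU-treated wild type Dkk3 stood at 173, below its level in that library.

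Beyond Dkk3 and Wnt5b no member differed by 2-fold between the vehicle-treated libraries as deposited. The library labelled knockout was the highest of the 4 libraries for 11 of 36 members, against 11.0% of all genes, and the 11 were Sfrp1, Dkk3, Wnt4, Bmpr1a, Smad1, Fgfr1, Fgfr2, Fgfrl1, Fgf1, Ltbp3 and Ltbp4. Above vehicle-treated wild type they ranged from Smad1 at 1.02-fold to Dkk3 at 4.83-fold, with Bmpr1a at 1.57-fold and Fgfr2 at 1.70-fold. With the share subtracted that library was the highest for 12 members, the same 11 and Fgf14, against 16.7% of all genes. Fgfr2 was then 2.01-fold (log2 difference 0.995, just under the 2-fold rule on that scale) and Bmpr1a 1.83-fold above vehicle-treated wild type. Fibroblast markers summed to 144% of vehicle-treated wild type in the same library, with 13 of 13 above it as deposited. With the share subtracted they summed to 131%. Pdgfrb, Col1a1 (2221 against 1752), Col3a1, Fbln2 and Mfap5 then stood below vehicle-treated wild type. The rest of that list stayed above it, with Dcn (5781 against 12492) the largest value. Thymic epithelial markers summed to 104%, and to 122.5% with the share subtracted, with 8 of 19 above vehicle-treated wild type as deposited (Krt5, 10373 against 17368) and 11 below it (Foxn1, 821 against 706). The shares of all genes above and below vehicle-treated wild type were not computed, so the marker counts cannot be called particular to these lists. The part of stromal content in these values was not tested. Of the other pathway genes, the regulator Gdf3 (82.3 against 215) and the BMP target Id4 (211 against 476) were higher and Thbs1 lower, and the remaining genes of the 5 lists were within 2-fold. With the share subtracted these calls were the same, with the TGF-beta-binding proteoglycan gene Dcn (5781 against 11363 as deposited) higher in addition.

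The 5 members that were higher in MNU-treated wild type, namely Wnt5b, Wnt8b, Bmp7, Fzd5 and Axin2, all stood higher in the vehicle-treated library labelled knockout than in vehicle-treated wild type and in MNU-treated knockout. So did 7 of the 12 members that were lower in MNU-treated wild type. The matching shares over all genes were not computed, so these counts cannot be called particular to the members. The 5 were also chosen for being high in MNU-treated wild type, the library whose share was estimated. Their count and the shares below are therefore no separate support for that estimate. For the 5 higher members, above the mean of those 2 libraries, the share of the wild-type MNU level was 17.8% for Wnt5b, 12.9% for Wnt8b, 24.0% for Bmp7, 18.5% for Fzd5 and 15.1% for Axin2. Over the 42 genes used for the estimate it ranged from 13.2% to 21.4%.

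The comparison of genotypes after MNU shares the MNU-treated wild-type library with the comparison within wild type. Between MNU-treated knockout and MNU-treated wild type, 13 of 36 members were higher in the knockout, against 15.0% of all genes, and 4 lower, against 7.37%. Fgfr2 was 43.6-fold, Sfrp1 17.2-fold, Wnt4 10.2-fold and Bmpr1a 8.15-fold higher in the knockout. The size for Fgfr2 rested on its 20.3 in MNU-treated wild type, and its log2 difference was 4.89 with a pseudocount of 10 and 3.94 with 40. Fgf13 (0.824 against 516) and Fgf14 (2.68 against 543) were higher too, as were Tgfb1 (2.08-fold) and Tgfbi (2.43-fold), which had not reached 2-fold within wild type. Wnt5b was 8.45-fold, Wnt8b 4.80-fold, Fzd5 4.45-fold and Bmp7 4.02-fold lower in the knockout. Axin2 lay just outside the rule at a log2 difference of -0.99. Fzd4 and Ltbp4 were within 2-fold, at 1.31-fold and 1.97-fold higher.

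MNU-treated knockout was close to vehicle-treated wild type for the members. Of 36, 0 were higher, against 1.57% of all genes, and 1 was lower, against 1.11%, which was Fzd4. The next largest differences were those of Fgfrl1 (-0.87), Fgf13 (-0.86), Dkk3 (0.84) and Tgfbi (0.74). Smad1, Smad4, Axin1 and Sfrp1 were within 1.01-fold of their level in vehicle-treated wild type.

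The MNU difference itself was set side by side in the 2 genotypes, as the knockout difference minus the wild-type difference. It reached 2 or more on the log2 scale for 6 of 36 members, against 6.62% of all genes, and -2 or less for 4 of 36, against 3.64%. The positive ones were Fgf13 (6.21), Fgf14 (5.57), Fgfr2 (4.13), Sfrp1 (3.79), Wnt4 (3.05) and Bmpr1a (2.29), for each of which MNU-treated wild type was the lowest library. The negative ones were Wnt5b (-4.06), Bmp7 (-2.60), Fzd5 (-2.50) and Wnt8b (-2.48). With the share subtracted the 6 positive ones were the same genes, against 5.88% of all genes, and 3 negative ones remained, against 2.96%, with Wnt8b at -1.89 and Wnt5b at -3.18.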

How the data were processed

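RNA from mouse thymus had been made into TruSeq libraries, with RNA integrity above 7.5 in all samples, per the labels' protocols. The submitters' processing notes list the tools TopHat2 2.0.8b and edgeR and the mouse genome build mm9, without saying what each was used for. In the deposited table each gene had 1 signal value per library, called a normalised count by the authors. The values were not whole numbers, so no count model or counting interval was used. They were made by counting, filtering and normalising steps not given in the sources used here.

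Groups came from the labels. The log2 was taken after adding 10, and genes whose 4-library mean reached 10 were counted, which kept all 36 members and 10587 genes in all. A difference of at least 2-fold on that scale was counted, and of 2 log2 units for the difference of the MNU differences. A fold given for a gene is the ratio of its normalised counts. The share of the MNU-treated wild-type profile was the median over genes that exceeded 1000 in that library and were more than 20-fold above vehicle-treated wild type and MNU-treated knockout. It was subtracted, negative values were set to 0, and the rest was rescaled. The members and lists were chosen with earlier results of these data known. Members reaching 100 in any library could be named, with those at 2-fold in any comparison always named, and in each pathway list up to 4 genes with the largest difference whose higher library reached 100. Pathway genes outside this rule are Ctnnb1, Lef1 and Tcf7, and Col1a1 and Col1a2 in the wild-type comparison. Fn1 was also named there outside it. Calculations used Python 3.11.15, pandas 2.3.3 and numpy 2.4.6. The counting rule and the share estimate were run on simulated data built with known changes and a known share. Such data cannot show whether the deposited library holds such a share. 1 pathway gene that the naming rule selected is not reported here. Protein sequences were not used here.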

Additional observations from a re-analysis of the deposited data

Results flagged for a closer look

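With 1 library per group no sample could be set against others of its group. Wnt5b was the 1 member that stood at least 2-fold higher with MNU in wild type and at least 2-fold lower with MNU between the knockout-labelled libraries, with log2 differences of 2.88 and -1.18. This difference between genotypes was not tested. The negative value was -0.30 with the wild-type MNU share subtracted from the vehicle-treated library labelled knockout.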

How the results depend on the processing

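No paired analysis was possible because each group held 1 library, and for the same reason no replicate could be left out. The alternatives were pseudocounts of 2.5 and 40, no filter and a filter at a mean of 100, median-of-ratios and upper-quartile scaling, a 4-fold threshold (3 log2 units for the difference of MNU differences), subtraction of the wild-type MNU share and replacement of the vehicle-treated library labelled knockout. Of 144 recomputed counts and medians over the members, 134 stayed within 1.5-fold. Some of these could not move: both filter settings kept every member, and the 4-fold threshold leaves the medians as they are. The 4-fold threshold, stricter by construction, left 1 member higher in MNU-treated wild type, 0 lower in MNU-treated knockout, 1 higher in the vehicle-treated library labelled knockout, 7 higher in knockout than in MNU-treated wild type and 1 with a negative difference of MNU differences. Against vehicle-treated wild type, the higher members in the vehicle-treated library labelled knockout numbered 1 with a pseudocount of 40, 1 with the share subtracted and 0 with MNU-treated knockout in its place, where 1 was lower. With vehicle-treated wild type in place of that library 1 member was lower in MNU-treated knockout. In that setting the Dkk3 difference turned from -1.34 to 0.84, and with MNU-treated knockout in place of that library the Wnt5b difference turned from 1.07 to -0.11. The cause was not tested. Neither scaling moved the median of all genes by more than 0.1 log2 units in any comparison. The depth behind single values is unknown, which limits the lowest levels most (Fgf13, Fgf14 and Fgfr2 in MNU-treated wild type).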
